A study of Mus musculus with 2 samples.

Results

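MiR-335, miR-483, miR-675, miR-296 and miR-298 are 5 miRNAs encoded at imprinted loci outside the large Dlk1-Dio3 cluster, and their reads were examined in small RNA libraries of embryonic day 9.5 (E9.5) mouse hearts. Members were taken by name, as every precursor row whose miRBase name was one of these 5, whichever arm carried the reads. This gave 5 of the 620 precursor entries found over both libraries, 4 of 568 entries in replicate 1 and 5 of 523 in replicate 2. Both libraries came from wild type (WT) C57BL/6 hearts at E9.5 without treatment, so there was 1 group with 2 replicates and no condition to compare. The number of hearts per library and whether the libraries came from separate litters were not stated in the sources used here, so the spread between them may be technical. For each precursor the deposited counts give the reads on the mature arm, the loop and the star, which is the arm opposite the mature one.

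Imprinted genes are expressed mainly from the allele of 1 parent, and several of them regulate growth of the embryo and placenta. A miRNA hairpin in an intron or exon of such a gene is cut from its transcript by the Microprocessor complex, which contains DGCR8, and then by DICER into a duplex of a 5p and a 3p strand. Usually 1 strand is retained by an Argonaute protein, where bases 2 to 8, the seed, guide target recognition. Mest and Igf2 are expressed from the paternal allele and H19 from the maternal allele, whereas miR-296 and miR-298 belong to the Gnas locus, next to the paternally expressed antisense transcript Nespas.

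The sequences of the arms are shown because the arm and its 5′ end set the seed of each miRNA. They are the consensus sequences of the deposited tables, 5′ to 3′, with the seed in capitals and the arm with more reads first. Positions are those of mm9, with both ends included, and all 620 precursor sequences were identical to that build. Genes are those of GENCODE vM1.
miR-335-3p: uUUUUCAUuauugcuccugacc
miR-335-5p: uCAAGAGCaauaacgaaaaaug
miR-296-3p: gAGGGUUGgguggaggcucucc
miR-296-5p: aGGGCCCCcccucaauccug
miR-298-5p: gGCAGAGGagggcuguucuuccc
miR-298-3p: gAGGAACUagccuucucucagc
miR-483-3p: cACUCCUCcccucccgucuug
miR-483-5p: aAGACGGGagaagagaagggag
miR-675-5p: uGGUGCGGaaagggcccacagug
miR-675-3p: uGUAUGCCcuaaccgcucag

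Each of these 10 sequences occurred at 1 exact place in the genome, and 0 other entries had the mature sequence of a member, so the counts of the members are not shared with a copy elsewhere. None of the seeds was found in the mature or star consensus of an entry with another name, taken from replicate 1 where both libraries list the entry. The mature consensus was the same in both libraries for all 4 members listed in both. Compared with the RefSeq mature miRNAs, 8 of the 10 sequences began at the same base. The exceptions were miR-483-3p and miR-675-3p, which the tables start 1 base later than RefSeq does. The RefSeq form of miR-483-3p is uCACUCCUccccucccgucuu, with the seed shifted by 1 base relative to the deposited form. The RefSeq form of miR-675-3p is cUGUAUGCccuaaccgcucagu. Among the 523 entries of the whole table with a matching RefSeq mature sequence, 87.6% began at the same base and 4.40% began 1 base later.

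The 5 precursors lie at 4 loci. That of miR-335 lies on the plus strand at chr6:30691314-30691375, in an intron of all 9 Mest transcripts that span it, 17767 bases from the annotated start of the gene. Mest encodes a hydrolase-like protein of embryonic mesoderm. The miR-675 precursor (chr7:149762984-149763038, minus strand) lies within H19, a long non-coding RNA, in an exon of 2 of 3 overlapping transcripts and 1010 bases from the gene start. The miR-483 precursor (chr7:149840836-149840894, minus strand) lies in an intron of all 8 overlapping transcripts of Igf2, which encodes insulin-like growth factor 2. It is 77797 bases from that of miR-675 on the same strand. The precursors of miR-296 (chr2:174092559-174092614) and miR-298 (chr2:174093015-174093076) are both on the minus strand with 400 bases between them. In this annotation neither lies inside a gene, and the nearest on the same strand is Nespas, 13661 bases from miR-298 and 14123 bases from miR-296. Within 10 kb on the same strand, miR-296 and miR-298 were the only listed neighbours of each other, and the other 3 members had none.

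Mature reads summed to 4942257 for replicate 1 and to 4806179 for replicate 2. The label of the tissue was checked with miRNAs of cardiac muscle (miR-1a, miR-133a, miR-208a, miR-208b and miR-499). All 5 names were listed in at least 1 library, miR-208a in replicate 1 only. Their entries had a summed share of 22.6% and 23.5% of the mature reads. This sum counts reads of miR-1a and miR-133a once for each of their precursors. MiR-1a-1-3p and miR-1a-2-3p had 9.97% and 10.5% each, and each miR-133a-3p entry had 1.23% and 1.19%. The endothelial miR-126a held 2.90% and 2.87%. Markers of other tissues were also present, from 0.0421% and 0.0554% for the liver miRNA miR-122 to 0.507% and 0.498% for pluripotent or trophoblast miRNAs, of which 9 of 10 names were listed. Between these lay erythroid miRNAs (3 of 3 names, 0.219% and 0.273%) and neural ones (4 of 4 names, 0.258% and 0.305%). Names in these lists were counted when listed in at least 1 library. MiR-144 was listed in replicate 2 only, with 73 mature reads, and miR-124 in replicate 1 only, with 2 mature reads in each entry. Most of the neural share came from 2 entries of miR-128, with mean shares of 0.1328% and 0.1298% in a mean sum of 0.2816%. In RNA of whole hearts, fewer cells of a type and less RNA per cell cannot be told apart.

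Together the members accounted for 148202 and 158119 mature reads in replicates 1 and 2, which is 2.999% and 3.29% of all mature reads (mean 3.14% ± 0.21, SD, n = 2). Most of these reads were miR-335-3p, with 86.6% of the members' reads in replicate 1 and 81.5% in replicate 2. Leaving out miR-483, which only replicate 2 lists, the sum was 3.08% ± 0.12 (SD, n = 2). The order of the members was the same in both libraries, miR-335-3p, miR-296-3p, miR-298-5p and miR-675-5p, and no neighbours in this order overlapped between libraries. MiR-483-3p fell between miR-298-5p and miR-675-5p in replicate 2. Levels are shares of mature reads and were not corrected for differences in ligation between sequences, which the counts cannot show.

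**Figure D1:**
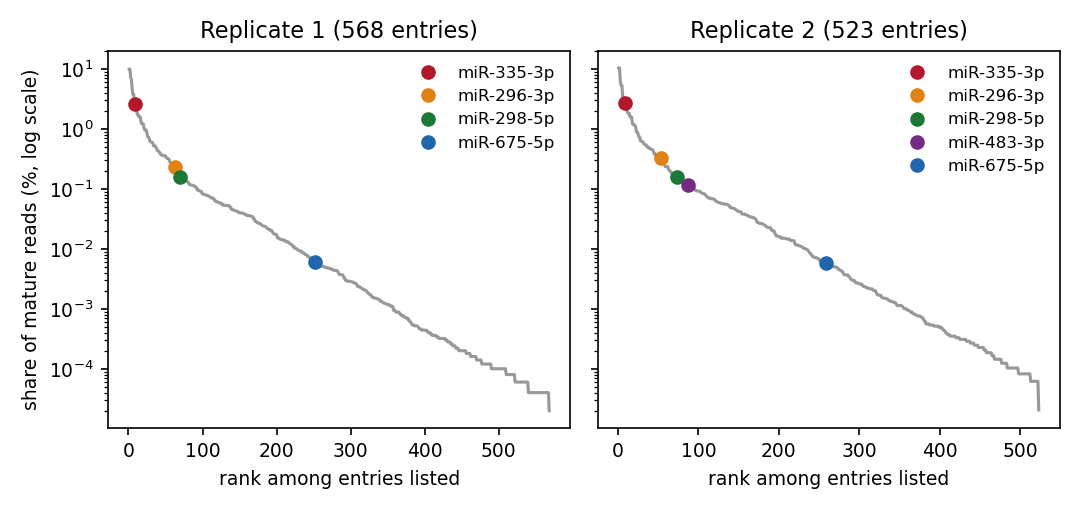
Share of mature reads (percent, log scale) against rank for all entries of each library (grey line), with the members as coloured points. MiR-335-3p is at rank 9 in both panels, and miR-483-3p appears in the replicate 2 panel only.

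MiR-335 was among the most abundant miRNAs of the E9.5 heart. MiR-335-3p had 128378 and 128846 mature reads in the 2 libraries, or 2.60% (95% Wilson confidence interval 2.58% to 2.61%) and 2.68% (2.67% to 2.70%). These values differed little, with a mean of 2.64% ± 0.059 (SD, n = 2), and the entry ranked 9 in each library. Ranks are of entries, and those above it repeat the reads of miR-1a and of miR-21a-5p for each of their precursors. The neighbours of miR-335-3p in level were miR-126a-3p above, at 2.88% ± 0.016, and miR-92a-1-3p below, at 2.19% ± 0.21 (SD, n = 2 for each). Neither overlapped it between libraries. MiR-335-5p, the arm whose name the tables give to the precursor and which has been described as a metastasis suppressor, had 6407 and 6847 reads. That is 4.75% and 5.05% of the reads on both arms. Even so, these star reads alone would rank 81 and 77 among the mature reads of their libraries. Only 1 loop read was counted in each library.

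MiR-296 and miR-298 were at intermediate levels, and their neighbouring precursors used opposite arms. MiR-296 had 11625 and 15661 mature reads on its 3p arm, a share of 0.235% (95% Wilson confidence interval 0.231% to 0.240%) and 0.326% (0.321% to 0.331%). The 2 intervals did not overlap, and replicate 2 was the higher library. Its mean of 0.281% ± 0.064 (SD, n = 2) placed it at rank 57, between miR-93-5p (0.284% ± 0.0014) and miR-26b-5p (0.251% ± 0.0078), both of which lay within its range. MiR-298 had 7893 and 7606 mature reads on its 5p arm, 0.160% (0.156% to 0.163%) and 0.158% (0.155% to 0.162%), with overlapping intervals. Its mean was 0.159% ± 0.0010 (SD, n = 2) at rank 70, and the entries next to it, miR-543-3p and miR-323-3p from the Dlk1-Dio3 region, overlapped it between libraries.

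MiR-675 was the lowest member. MiR-675-5p, from the H19 exon, was counted 306 times in replicate 1 and 285 times in replicate 2, a share of 0.00619% (95% Wilson confidence interval 0.00554% to 0.00693%) and 0.00593% (0.00528% to 0.00666%). At 0.00606% ± 0.00019 (SD, n = 2) it ranked 250, and miR-335-3p had 420 and 452 times as many mature reads. Its neighbours were miR-669f-5p at 0.00622% and miR-196b-5p at 0.00588%, of which the first overlapped it between libraries and the second lay just below both of its values. All shares of this member were well above a chosen floor of 3 reads, which is 6.07e-05% of replicate 1 and 6.24e-05% of replicate 2. Some entries are listed with fewer mature reads than that.

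MiR-483, from the Igf2 intron, was listed in replicate 2 only, where its precursor had 10410 reads. Of these, 5721 were mature reads on the 3p arm, 0.119% of the mature reads (95% Wilson confidence interval 0.116% to 0.122%) and rank 87, and 4689 were star reads on the 5p arm. In that library it had 20.1 times the mature reads of miR-675, the member at the neighbouring H19 gene, and miR-298 had 1.33 times those of miR-483. In replicate 1 it is not listed, which gives no value there and was not read as 0 reads. Of the 94 entries with at least 5000 mature reads in replicate 2, 93 were listed in both libraries and miR-483-3p was the exception. It had the most reads of all 52 entries listed only in replicate 2, whose median was 8 mature reads. The counterpart among the 97 entries listed only in replicate 1 was miR-300-3p with 19069 mature reads, 1 of 92 entries at that minimum. MiR-483 was also the member whose hairpin the tables mark as not passing the randfold test, a comparison of its folding energy with that of shuffled sequences. In replicate 2 this mark was carried by 120 of 523 entries, by 16 of the 94 with at least 5000 mature reads and by 27 of the 52 listed only there. Whether this mark has a part in the missing listing was not tested.

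Arm usage ranged from nearly complete use of 1 arm to almost equal use of both. As a percent of mature and star reads, the mature arm held 99.7% and 99.8% in miR-298-5p (20 and 13 star reads). In miR-335-3p it held 95.2% (95% Wilson confidence interval 95.1% to 95.4%) and 94.95% (94.8% to 95.1%), with 20.04 and 18.8 mature reads for each star read. In miR-296-3p it held 91.3% (90.8% to 91.8%) and 91.5% (91.1% to 91.9%), with 1108 and 1454 star reads. The members from distal chromosome 7 were the most balanced. MiR-675-5p held 65.9% (61.5% to 70.1%) and 67.4% (62.8% to 71.7%), with 158 and 138 reads on the 3p arm. MiR-483-3p held 55.0% (54.0% to 55.9%) in replicate 2.

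Across the 427 entries with at least 20 mature and star reads in sum and the same mature arm in both libraries, the median share of the mature arm was 98.9%. Only 17 of the 427 (3.98%) had a mean share closer to 50% than miR-675. In replicate 2, 10 of 417 entries with at least 20 such reads had a share closer to 50% than miR-483. Both sets include second, overlapping precursors that repeat the mature reads of a miRNA with 0 star reads, such as those of miR-21a-5p and miR-381-3p. These lie at 100%. The set of 427 also leaves out precursors whose mature arm differs between the libraries, such as miR-365-1 at 47.0% and 57.3%. In 3 of the 5 members the mature arm was 3p, compared with 52.6% of all 620 entries.

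**Figure D2:**
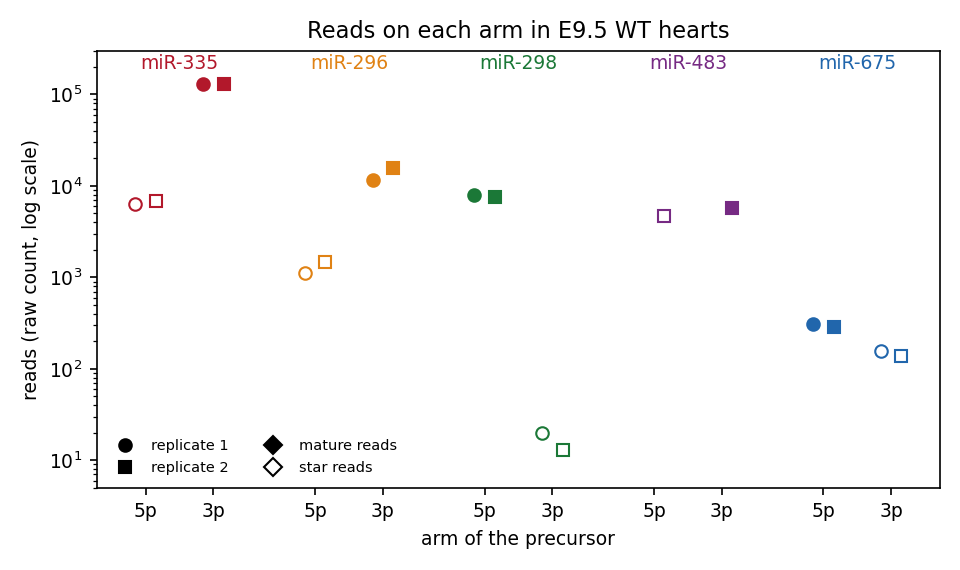
Raw reads (log scale) on the 5p and 3p arm of each member, circles for replicate 1 and squares for replicate 2, filled for mature and open for star reads. The distance between filled and open symbols is largest for miR-298 and smallest for miR-483, which has replicate 2 values only.

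**Figure D3:**
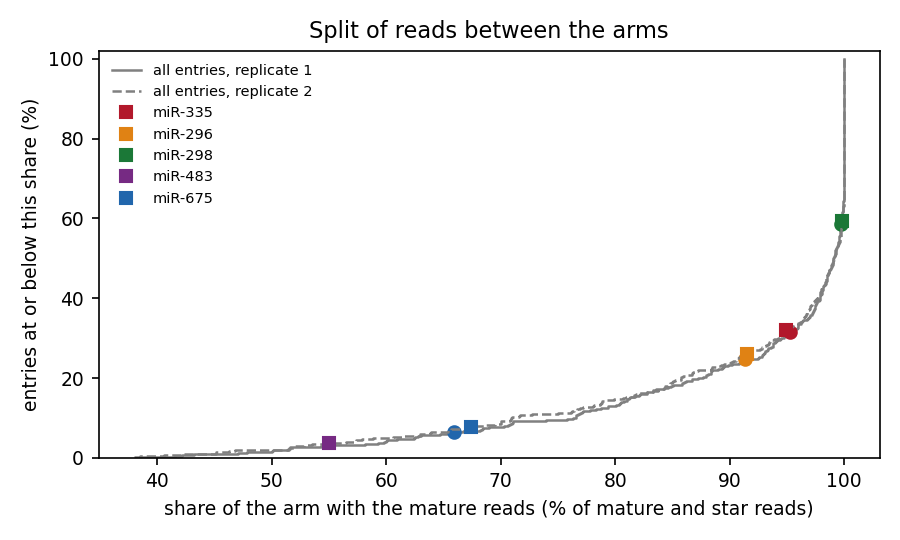
Percent of entries at or below a given share of the mature arm, as grey steps for all entries with at least 20 mature and star reads in each library, with the members as coloured points (circles for replicate 1, squares for replicate 2). MiR-483 at 55.0% and miR-675 at 65.9% and 67.4% lie at the low end, and miR-298 lies at 99.7% and 99.8%.

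The arm split was compared between the libraries by Fisher's exact test on mature and star reads, with Benjamini-Hochberg adjustment over all 427 entries, and 7.49% of them differed at an adjusted p of 0.05. Of the 4 members listed in both libraries, 1 differed. The share of miR-335-3p was lower in replicate 2 by 0.29 percentage points (adjusted p = 0.0082, Fisher's exact test), a small shift that the high counts resolve. The differences of miR-296 (0.21 percentage points), miR-298 (0.082) and miR-675 (1.43) had an adjusted p of 1 in the same exact test. For miR-675 the intervals above are wide enough to hold a difference of several percentage points.

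Between the libraries, the mature reads of each entry were compared by the exact binomial test against the ratio of the library totals, two-sided and with Benjamini-Hochberg adjustment over 426 entries. This test covers counting error only. It called 41.1% of the entries different, of which 27.7% were higher in replicate 2 and 13.4% in replicate 1 (percent of all entries tested). The split depended on the scaling: 118 calls were higher in replicate 2 and 57 in replicate 1 by library totals, 82 and 95 with TMM library sizes, and 77 and 101 with DESeq2's size factors, which shift the median log2 ratio of all entries from 0.073 to near 0. Of the 4 members tested, 2 were called by library totals, miR-296-3p and miR-335-3p. With TMM library sizes or DESeq2's size factors 3 members were called, with miR-298-5p added, beside 177 and 178 of all 426 entries. MiR-483 could not be tested. Counts are high enough that 68.1% of the 185 entries with at least 1000 mature reads in each library were called. The common dispersion of edgeR over the table gave a coefficient of variation of 15.1% between the 2 libraries. EdgeR names this value biological, but here it may be technical.

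MiR-296-3p was 1.39-fold higher in replicate 2, at 0.47 on the log2 scale (95% exact interval 0.44 to 0.50, adjusted p = 1.8e-156, exact binomial test). Among the 185 entries just named, whose median absolute log2 ratio was 0.12, only 3 had a larger one. Its star reads moved the same way, with a log2 ratio of 0.43, so that both arms were higher in replicate 2 while the split between them was not told apart. MiR-298-5p, encoded 400 bases away, had a log2 ratio of -0.013 (95% exact interval -0.059 to 0.032), with an adjusted p of 0.70 in the exact binomial test. It was called lower in replicate 2 at -0.075 with TMM library sizes (adjusted p = 0.0040, exact binomial test) and at -0.087 with DESeq2's size factors (adjusted p = 0.00064, exact binomial test). The ratio of miR-296-3p to miR-298-5p, which no scaling changes, was 1.47 in replicate 1 and 2.06 in replicate 2. The log2 ratios of this pair differed by 0.48, whereas the median difference was 0.18 over 110 pairs of neighbouring entries within 10 kb, 100 of which differed by less. Among the 51 pairs with at least 1000 mature reads throughout, 47 differed by less. These neighbour values describe the table and were not tested.

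The marker lists, the lists of other imprinted miRNAs and GC content are given beside miR-296-3p. The liver marker miR-122-5p was also called higher in replicate 2, with 2083 and 2664 mature reads, as were 2 of the 3 erythroid entries tested. These were both entries of miR-486a-5p, of which the higher had 5456 and 6534 reads. The third erythroid entry, miR-451a, had 128 and 127 reads and was not called (log2 ratio 0.029). The other lists of tissue markers did not lean towards replicate 2. Of 7 neural entries tested 2 were higher in replicate 2 and 4 in replicate 1 (median log2 ratio -0.37). Of 6 cardiac muscle entries these counts were 2 and 4 (median -0.050), and of 9 pluripotent or trophoblast entries 0 and 1 (median -0.073). The imprinted Dlk1-Dio3 list did lean that way, with 22 of 44 entries tested higher in replicate 2 and 6 in replicate 1 (median 0.11). Of 14 entries of the miR-297, miR-466, miR-467 and miR-669 families, which include the imprinted Sfmbt2 cluster, these counts were 2 and 0 (median -0.053). Over all 426 entries, 27.7% and 13.4% were called in these directions. Entries of 1 miRNA are counted separately in these lists and are not independent. The neural calls repeat miR-128 and miR-9-5p (237 and 178 reads in several entries), and the cardiac ones repeat miR-1a and miR-133a. MiR-126a-3p was not called (-0.012). The 35 tested entries with a GC content of the mature sequence of at least 65% had a median log2 ratio of 0.40, against 0.073 for all 426 entries. Of these, 9 had at least 1000 mature reads in each library, with a median of 0.15, and the highest was miR-296-3p at 0.47 and the lowest miR-298-5p at -0.013. The part of these differences in the result was not tested.

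MiR-335-3p was 1.03-fold higher in replicate 2 by library totals, at 0.046 on the log2 scale (95% exact interval 0.034 to 0.057, adjusted p = 8.0e-15, exact binomial test). This lay below the median log2 ratio of all entries, 0.073, and with TMM library sizes or DESeq2's size factors the direction turned to -0.016 and -0.028. No direction can be given for it. MiR-675-5p had a log2 ratio of -0.062 (95% exact interval -0.30 to 0.18), with an adjusted p of 0.74 in the exact binomial test. Its interval is the widest of the 4 members tested and also holds lower values of the size of the median absolute log2 ratio of all entries, 0.19.

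**Figure D4:**
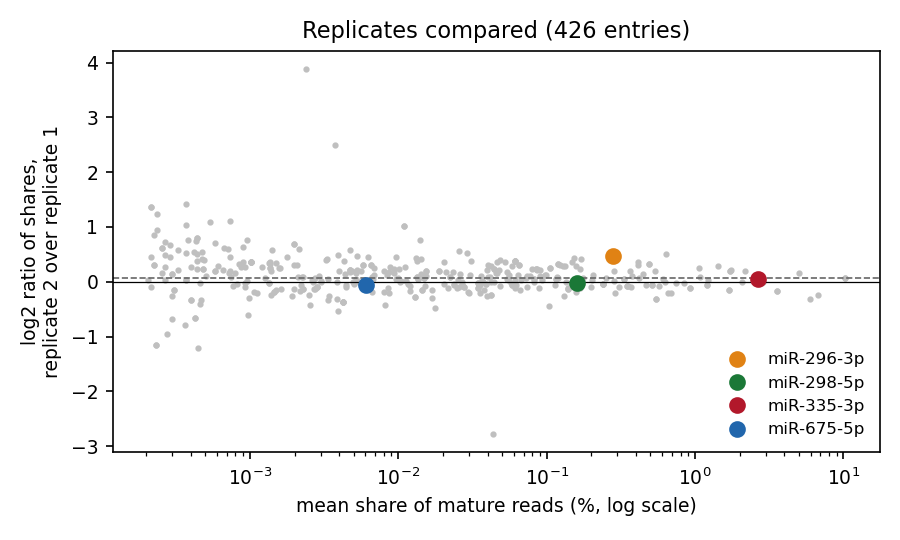
Log2 ratio of the share of mature reads, replicate 2 over replicate 1, against the mean share (percent, log scale) for the 426 entries tested (grey) and the 4 members tested (coloured). The dashed line marks the median of all entries, 0.073, and miR-296-3p is the member away from it, at 0.47.

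By composition, 4 of the 5 members were GC-rich. The mature sequences of miR-296-3p (68.2%), miR-483-3p (66.7%), miR-298-5p (65.2%) and miR-675-5p (65.2%) had at least 65% GC, as did 9.52% of all 620 entries, while that of miR-335-3p had 36.4%. The median of all entries was 50%. The folding energy per base of the deposited precursor, computed with RNAfold, followed the same division, from -0.534 kcal/mol for miR-298 through -0.473 for miR-675, -0.447 for miR-483 and -0.441 for miR-296 to -0.340 for miR-335. The median over all entries was -0.392 kcal/mol. The energy of the miR-483 hairpin was thus lower than the median. Its mark of not passing the randfold test rests on a different comparison, with shuffled sequences and not with other entries.

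**Figure D5:**
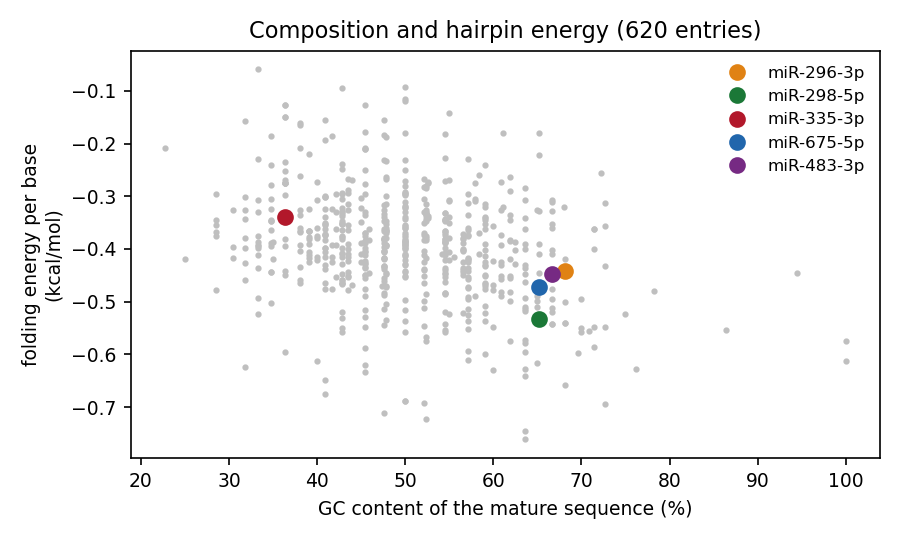
Folding energy per base of the precursor (kcal/mol) against GC content of the mature sequence (percent) for all 620 entries (grey) and the members (coloured). MiR-335-3p lies at 36.4% GC, apart from the other members at 65.2% to 68.2%.

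More reads came from the imprinted Dlk1-Dio3 region than from the members. Of 49 names of the Dlk1-Dio3 region, 42 were listed in at least 1 library, with 46 entries, 44 of them in both. Their summed share was 17.2% and 17.7% of mature reads, led by miR-127-3p (4.998% ± 0.39) and miR-381-3p (1.68% ± 0.12, SD, n = 2 for each). This sum counts the reads of miR-379, miR-381, miR-411 and miR-485 once for each of their entries, whereas no member has a copy. The miR-297, miR-466, miR-467 and miR-669 families include a cluster in an intron of the imprinted gene Sfmbt2 and were taken here by name wherever they map. They had 33 entries, of which 14 were listed in both libraries, and 0.265% and 0.296% of mature reads. These were led by miR-466i-5p (0.171% ± 0.034) and miR-669c-5p (0.0528% ± 0.0093; SD, n = 2 for each). The leading miR-466i-5p entry maps to chromosome 5 and that of miR-669c-5p to chromosome 2, so this sum is not that of the Sfmbt2 intron alone. It also counts repeated entries each time, such as those of miR-466c-3p. The members' 2.999% and 3.29% lay between these sums. Without miR-335, the 3 other members listed in both libraries had 0.401% and 0.490%.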

How the data were processed

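Total RNA of the hearts was extracted with TRIZOL, and small RNA libraries (TruSeq) were sequenced on a HiSeq2500. Per the labels, miRDeep2 was run against mm9, the build also named in the submitters' processing notes. The authors deposited 1 table per library with raw read counts per precursor, not normalized, beside a deposited miRDeep2 score that was not used for any result. Versions of miRDeep2 and miRBase, trimming and length filters were not given in the sources used here. Reads have no molecular identifiers, so intervals and tests cover counting error only. Coordinates were brought to counting from 1. Entries were paired at 50% overlap of both precursors on 1 strand, and 471 were listed in both libraries. In 1 row of replicate 2 the total differs from the sum of its parts. Names follow the arm with the reads.

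Shares are percent of all mature reads, in which entries with the same mature sequence count repeatedly. Tests used scipy 1.17.1, on entries with the same mature arm in both libraries and at least 20 reads in sum. Both tests were tried on simulated counts with counting error only. The simulation leaves out any further spread between libraries, so it gives no error rate for these data. Dispersion and scalings came from edgeR 4.0.16 and DESeq2 1.42.0, folding energies from ViennaRNA 2.7.2. The text names all members, the entries next to each in mean share, those with a shared seed and the 2 highest entries of each imprinted list. Neighbouring pairs, entries of high GC content, entries listed once and the erythroid and liver entries were chosen after their values were seen. The members, lists and tests were chosen with earlier results of these data known.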

Additional observations from a re-analysis of the deposited data

How the results depend on the processing

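When each mature sequence entered the total 1 time, the summed share of the members rose from 3.14% to 4.31%, because the total shrinks and no member has a copy. Using all reads on the precursor gave 3.27%, a minimum of 10 mature reads in both libraries gave 3.10%, and leaving out miR-483, chosen after seeing the data, gave 3.08%. Leaving out each replicate gave 2.999% to 3.29%. With all reads on the precursor miR-483 rose from 0.119% to 0.211% and miR-675 from 0.00606% to 0.00886%. The number of entries that differ between the libraries lay between 136 and 184 under all alternatives (175 as reported). The log2 ratio of miR-335-3p changed sign to -0.016 with TMM library sizes, and to -0.028 both with DESeq2's size factors and with the median of all entries set to 0, an alternative added after seeing the data. With these 3 scalings miR-298-5p passed the threshold at -0.075, -0.087 and -0.087, so that 3 members differed in place of 2. MiR-296-3p kept its direction and its call under every alternative run, at 0.40 to 0.48. The number of entries with a different arm split was 34 and 31 at other read minimums (32 as reported), and the members kept their calls. No paired analysis was possible because there is 1 group. Depth limits miR-675-5p most, whose 306 and 285 reads give a 95% exact interval of -0.30 to 0.18 for its log2 ratio.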
